A study of Mus musculus with 8 samples.

Results

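The genes described here make cholesterol and fatty acids, sense and move cholesterol, or store and import fatty acids. They are 39 genes, taken by symbol from a list, of 35976 gene rows in a table of RNA-seq counts from mouse full-grown oocytes. The rule used only gene symbols, but the list was drawn up with earlier results of these data known. Of the 39 genes, 33 passed the filter on low counts and were among 16847 genes tested.

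Full-grown oocytes (FGOs), the oocytes that have finished growth in the ovary, came in 4 groups of 2 libraries. The first group is labelled H2A.Z DKO, with a genotype given as double knockout of H2A.Z.1 and H2A.Z.2, the forms of histone variant H2A.Z. Its reference is H2A.Z control oocytes, labelled wild type. The other mutant is Mll2 KO, lacking the histone H3K4 methyltransferase whose mouse gene symbol is Kmt2b, and its reference is Mll2 WT oocytes, also labelled wild type. The series sets both mutants beside each other in a study of maternal H3K4 methylation and meiotic progression. Each library was made from polyA RNA of a pool of about 20 oocytes whose zona pellucida had been removed, with 200 pg of cDNA going into the library. The sources used here give no strain, age, allele or Cre driver, and do not say whether the pools of a group came from separate animals. The p-values below therefore measure only the spread between these libraries. In such bulk pools, fewer cells of a kind and less RNA per cell cannot be told apart.

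Cholesterol is built from acetyl-CoA through mevalonate, farnesyl diphosphate, squalene and lanosterol, by enzymes whose genes are turned on by the transcription factor SREBP2. SREBP proteins are kept in the endoplasmic reticulum by Scap and Insig proteins while sterols are plentiful and travel to the Golgi for activation when sterols run low. SREBP1, from Srebf1, drives fatty acid synthesis genes more strongly. Mouse oocytes are known for low expression of several cholesterol synthesis enzymes and for taking cholesterol from the cumulus cells around them, which oocyte signals stimulate to make it. Fatty acids stored in lipid droplets and burned in mitochondria are a known energy source of the maturing oocyte.

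Total counts were 20309233 to 30087863 per library, with 21077 to 22212 genes having counts. Libraries of a group correlated at r = 0.98 to 0.99 on the log scale, but within each group they differed more than counting noise. This excess, as chi-square per degree of freedom, was largest in Mll2 KO at 38.4. It was 12.5 in Mll2 WT, 6.26 in the group labelled H2A.Z DKO and 4.64 in H2A.Z controls. The targeted genes went against the DKO label. H2afz had 322 and 317 CPM (counts per 1000000 of the TMM-scaled library size) in the libraries labelled DKO, against 23.9 and 30.0 CPM in H2A.Z controls, and H2afv had 285 and 294 CPM against 108 and 107 CPM. Which exons were deleted is not given in the sources used here, so a transcript without function could still be counted, and these libraries are called "labelled DKO" throughout. Kmt2b had 8.73 and 9.28 CPM in Mll2 KO libraries, against 41.9 and 42.4 CPM in WT libraries. Summed CPM of 16 oocyte markers was 30990 and 34710 in libraries labelled DKO, against 31390 and 29970 in controls. In the other line it was 21890 and 19840 in Mll2 KO, against 22530 and 27540 in WT. Summed CPM of 22 granulosa and cumulus cell markers was 130.2 and 132 in libraries labelled DKO, against 95.2 and 98.5 in controls. It was 105 and 106 in Mll2 KO, against 93.09 and 95.04 in WT. Most of that sum was Cyp19a1, Nr5a2, Fshr and Kitl. Of 13 tested markers of this list, 4 were higher and 2 lower in libraries labelled DKO, and 5 higher and 2 lower in Mll2 KO. That is 46.2% and 53.8% called at an adjusted p under 0.05, beside 30.9% and 30.6% of all tested genes. Fshr, the receptor of follicle-stimulating hormone, had 18.7 and 18.9 CPM in libraries labelled DKO, against 1.29 and 0.598 CPM in controls (4.36 ± 0.30, adjusted p = 1.50e-07). It had 7.25 and 7.70 CPM in Mll2 KO, against 0.992 and 0.594 CPM in WT (3.23 ± 0.30, adjusted p = 1.05e-06). Ptgs2 had 3.68 and 3.70 CPM in libraries labelled DKO, against 0.259 and 0.159 CPM in controls (4.15 ± 0.54, adjusted p = 4.66e-05). Cyp19a1 went the other way in Mll2 KO, where it was lower than in WT (edgeR log2 fold change -0.78 ± 0.12, adjusted p = 0.000171). The list held Amh, Ptx3, Tnfaip6 and Slc38a3 at or near 0 in every library, with no value above 0.279 CPM. The part of these markers in the results below was not tested.

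In wild-type oocytes the pathway was uneven from step to step. Per kilobase of transcript, averaged over both control groups, Fdft1 (squalene synthase, the first enzyme committed to sterols) had the highest level of the 39 genes, at 172 CPM per kb. That level stood at percentile 96.8 of 20481 protein-coding genes. High levels were also seen for the fatty acid elongases Elovl1 (128) and Elovl5 (56.3), the HMG-CoA synthase Hmgcs1 (91.5), the sterol desaturase Sc5d (49.9) and the lysosomal cholesterol transporter Npc1 (48.3 CPM per kb). Their order differed between the control groups, with Hmgcs1 at 70.0 and Elovl1 at 147 CPM per kb in H2A.Z controls, and 113 and 108 CPM per kb in Mll2 WT. Elovl5 had 42.0 CPM per kb in H2A.Z controls, below Sc5d at 50.7 and Npc1 at 45.2, and 70.6 CPM per kb in Mll2 WT. The enzymes that act right after squalene synthase had lower levels, in the middle range of coding genes. Squalene epoxidase Sqle had 4.28 CPM per kb (percentile 66.7), lanosterol synthase Lss had 1.12 (percentile 54.0) and the lanosterol demethylase Cyp51 had 1.02 (percentile 53.2). Mvk, the mevalonate kinase, had 0.121 CPM per kb, with 0 to 12 counts in a library. Of the transcription factors, Srebf1 had 5.90 CPM per kb and Srebf2 had 0.353 CPM per kb, a level at percentile 44.9 of coding genes. Among fatty acid enzymes, the acetyl-CoA carboxylase Acaca had 0.129 CPM per kb, the fatty acid synthase Fasn 0.516, and the acetyl-CoA carboxylase of the mitochondrial surface, Acacb, 1.86. The processed pseudogene Gm5182 is 99.2% identical to Acaca over 6118 aligned bases, so the low Acaca level is uncertain.

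The 6 members with too few counts to be tested were Mvk, the desaturases Scd1, Fads1 and Fads2, the elongase Elovl6 and the mitochondrial import enzyme Cpt1a, none with more than 14 counts in any library. Fads1 had 0 counts in both H2A.Z control libraries, which allows up to 3 counts in that group, and at most 6 counts elsewhere. At this depth no difference in these genes could be seen. The desaturase Scd2, which was tested, had only 0.0992 to 0.598 CPM over all 8 libraries.

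**Figure D1:**
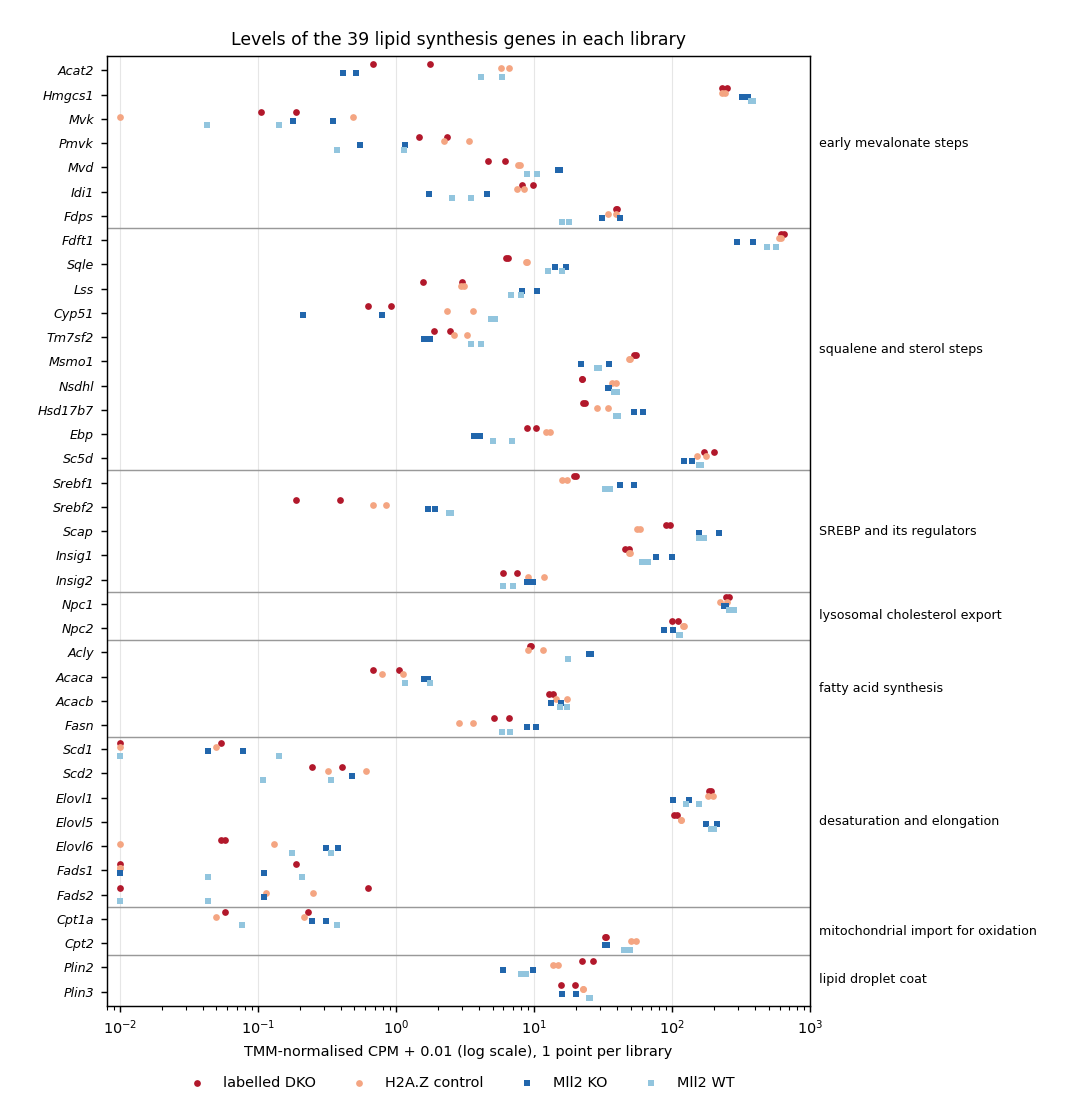
Levels of the 39 genes by library, 1 point per library, as TMM-normalised CPM on a log axis with a small offset so that zeros can be drawn; genes run down the page by role and colours mark the 4 groups. Fdft1, Hmgcs1, Npc1 and Elovl1 lie above 100 CPM in all libraries, and Cyp51 and Acat2 lie lower in both mutants than in their controls.

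Against their own controls, libraries labelled DKO had 10 of the 33 tested members called at an adjusted p under 0.05, with 3 higher and 7 lower. The call rate of 30.3% stood beside a background of 30.9% of all tested genes (19.4% higher and 11.5% lower), so the share of called members was near that of all genes. Scap, Fasn and the lipid droplet coat gene Plin2 rose. Acat2, Cyp51, Nsdhl, Hsd17b7, Srebf2, Insig2 and Cpt2 fell. The median log2 fold change of the members was -0.20, and that of all tested genes was 0.12. Scaling by library size alone moved this median to 0.00, and the calls over all genes to 2063 higher and 2467 lower, against 3269 higher and 1929 lower with TMM. With that scaling 3 members were higher and 10 lower. The count of called members was 6 without H2A.Z control library 1 (16.7%, beside 15.8% of all genes in that fit) or without control library 2 (17.1%, beside 14.9%), and 5 without library 1 labelled DKO (14.3%, beside 15.5%). It was 17 without Mll2 KO library 1 (48.6%, beside 37.3%) or KO library 2 (47.2%, beside 37.4%), and 17 with this line fitted alone (53.1%, beside 43.1%).

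In Mll2 KO oocytes, 14 of 33 tested members were called, 7 higher and 7 lower. That is 42.4%, beside a background of 30.6% of all tested genes (14.4% higher and 16.2% lower). Mvd, Fdps, Hsd17b7, Srebf1, Insig1, Acly and Fasn rose, and Acat2, Fdft1, Cyp51, Tm7sf2, Ebp, Cpt2 and Plin3 fell. Their median log2 fold change was -0.04, beside 0.02 for all tested genes. Without WT library 2 the count was 5 members, or 13.9% beside 15.1% of all genes. It was 8 without WT library 1 (22.2%, beside 17.9%) and 9 with this line fitted alone (27.3%, beside 21.5%). Over all genes, scaling by library size alone gave 3418 higher and 2013 lower calls, against 2428 and 2730 with TMM, and among members 8 higher and 5 lower.

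Acat2, Cyp51 and Cpt2 fell in both mutants and Fasn rose in both, while Hsd17b7 was called in opposite directions. Acat2 encodes the cytosolic thiolase that joins acetyl-CoA units at the head of the mevalonate pathway. Acat2 had 0.665 and 1.76 CPM in libraries labelled DKO, against 6.62 and 5.74 CPM in H2A.Z controls, from 15, 37, 128 and 144 counts. It had 0.506 and 0.403 CPM in Mll2 KO oocytes, against 4.10 and 5.80 CPM in WT, from 15, 12, 124 and 176 counts. The groups were well apart in both lines. The log2 fold change was -2.36 ± 0.36 (SE, edgeR quasi-likelihood, adjusted p = 0.000205), which is 5.12-fold lower, in libraries labelled DKO. It was -3.43 ± 0.40 in Mll2 KO (adjusted p = 1.19e-05), or 10.8-fold lower. Both calls held in 14 of 14 alternatives. The mouse gene Acat3 is a near copy of Acat2, 97.7% identical over 1477 aligned bases, so reads of the pair could be split differently. Acat3 itself had at most 0.705 CPM in any library.

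Cyp51 removes the methyl group from lanosterol that starts its conversion to cholesterol. Cyp51 had 0.621 and 0.902 CPM in libraries labelled DKO, against 2.33 and 3.63 CPM in H2A.Z controls, from 14, 19, 45 and 91 counts. In the other line it had 0.776 and 0.202 CPM in Mll2 KO, against 5.22 and 4.88 CPM in WT, from 23, 6, 158 and 148 counts. No mutant library reached its control libraries. The log2 fold change was -1.98 ± 0.44 in libraries labelled DKO (adjusted p = 0.00313) and -3.36 ± 0.43 in Mll2 KO (adjusted p = 3.33e-05). The first call was lost without H2A.Z control library 2 (adjusted p = 0.0557) or without library 1 labelled DKO (adjusted p = 0.0528). An exon of Cyp51 shares 166 bases with the antisense gene Akap9, and whether strand was used in counting is not given in the sources used here. Akap9 had 45.1 and 41.1 CPM in libraries labelled DKO, against 56.9 and 53.0 CPM in controls, and 58.0 and 57.6 CPM in Mll2 KO, against 82.3 and 89.6 CPM in WT. It lay far above Cyp51 and was lower in both mutants, and its part in the Cyp51 counts was not tested.

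Cpt2 encodes the carnitine acyltransferase of the inner mitochondrial membrane that hands fatty acids to oxidation. Cpt2 had 33.1 and 32.5 CPM in libraries labelled DKO, against 50.5 and 54.5 CPM in controls, and 32.8 and 33.9 CPM in Mll2 KO, against 44.7 and 49.9 CPM in WT. Its libraries did not overlap in either line. Its log2 fold change was -0.68 ± 0.12 in libraries labelled DKO (adjusted p = 0.000765) and -0.50 ± 0.12 (adjusted p = 0.00565) in Mll2 KO, where the call was lost without WT library 2 (adjusted p = 0.08001). Fasn encodes the fatty acid synthase that builds palmitate. Fasn had 6.52 and 5.13 CPM in libraries labelled DKO, against 2.84 and 3.59 CPM in controls, and 8.90 and 10.3 CPM in Mll2 KO, against 5.85 and 6.69 CPM in WT. It was higher in all 4 mutant libraries than in their own controls, by 0.85 ± 0.23 on the log2 scale in libraries labelled DKO (adjusted p = 0.0124) and by 0.61 ± 0.21 in Mll2 KO (adjusted p = 0.0371). The first Fasn call was lost without H2A.Z control library 1 (adjusted p = 0.119) or library 1 labelled DKO (adjusted p = 0.127). The second was lost in 7 of 14 alternatives, among them DESeq2 (adjusted p = 0.0528) and the fits without WT library 1 (adjusted p = 0.217), WT library 2 (adjusted p = 0.118) or KO library 2 (adjusted p = 0.147).

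The promoters of these 4 genes, called in the same direction in both mutants, are shown because H2A.Z and H3K4 methylation are marks of promoters. Each runs from 250 bases before to 50 after a RefSeq start site (GRCm38.p6), on the minus strand in all 4, and is written 5′ to 3′ with the CCAAT box (CCAAT) and the GC box (GGGCGG) in capitals on either strand. The regions are chr17:12960676-12960975 for Acat2, chr5:4104648-4104947 for Cyp51, chr4:107923540-107923839 for Cpt2 and chr11:120824498-120824797 for Fasn.
Acat2 promoter: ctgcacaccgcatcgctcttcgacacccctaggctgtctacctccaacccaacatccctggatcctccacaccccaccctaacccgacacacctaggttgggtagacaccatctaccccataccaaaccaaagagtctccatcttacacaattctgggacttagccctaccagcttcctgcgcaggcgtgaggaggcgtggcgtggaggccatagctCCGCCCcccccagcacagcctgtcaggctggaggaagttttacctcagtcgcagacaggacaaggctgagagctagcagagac
Cyp51 promoter: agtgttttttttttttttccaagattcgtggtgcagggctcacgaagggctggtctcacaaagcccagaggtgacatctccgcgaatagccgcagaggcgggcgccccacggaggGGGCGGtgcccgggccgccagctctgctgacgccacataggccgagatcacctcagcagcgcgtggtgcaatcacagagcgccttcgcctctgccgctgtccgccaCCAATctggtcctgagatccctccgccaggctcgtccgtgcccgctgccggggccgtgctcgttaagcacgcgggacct
Cpt2 promoter: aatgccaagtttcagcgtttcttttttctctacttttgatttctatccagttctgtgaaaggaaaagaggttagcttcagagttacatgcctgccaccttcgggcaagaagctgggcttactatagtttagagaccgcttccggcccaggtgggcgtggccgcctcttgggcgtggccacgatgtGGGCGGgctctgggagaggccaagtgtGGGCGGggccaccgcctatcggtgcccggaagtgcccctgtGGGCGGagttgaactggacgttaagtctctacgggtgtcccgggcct
Fasn promoter: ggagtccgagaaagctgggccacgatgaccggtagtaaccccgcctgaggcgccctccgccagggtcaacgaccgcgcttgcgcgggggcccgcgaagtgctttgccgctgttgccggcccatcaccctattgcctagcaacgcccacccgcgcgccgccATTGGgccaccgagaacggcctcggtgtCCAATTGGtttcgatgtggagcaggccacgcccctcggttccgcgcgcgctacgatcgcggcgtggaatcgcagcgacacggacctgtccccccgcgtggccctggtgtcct

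The window of Acat2 held 10 CpG sites and 1 GC box on the reverse strand. Cyp51 held 28 CpG sites, 1 GC box and 1 CCAAT box, and Cpt2 held 17 CpG sites and 3 GC boxes. Fasn, the gene that rose, held the most CpG sites of the 4 at 39, with 3 CCAAT boxes and no GC box. Of the 39 genes, 32 had an entry, with 39 windows in all. A CCAAT box was in 27 of these windows (69.2%), against 38.2% of 21262 windows of coding genes and 37.4% of all 32851 windows. A GC box was in 30 (76.9%), against 46.2% and 35.7%. The palindromic E-box CACGTG, to which SREBP can bind, was in 7 (17.9%), against 7.84% and 7.15%. Both windows of Scap, which overlap each other, are among these 7. The classical sterol response element TCACNCCAC was in the window of Hmgcs1 alone (2.56%), against 1.19% and 1.24%. All motifs were searched on both strands. Median GC content was 61.3% in member windows and 56.3% in windows of coding genes.

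Of 6 tested genes of the early mevalonate steps, 1 fell in libraries labelled DKO, while in Mll2 KO 2 rose and 1 fell. That is 16.7% and 50% of few genes, beside 30.9% and 30.6% of all tested genes. Fdps makes farnesyl diphosphate, the branch point to sterols and to protein prenylation. Fdps had 39.5 and 40.1 CPM in libraries labelled DKO, against 34.1 and 39.1 CPM in controls, and 42.1 and 31.3 CPM in Mll2 KO, against 16.0 and 18.0 CPM in WT. The WT libraries had the lowest values, and all others lay between 31.3 and 42.1 CPM. Fdps rose 2.16-fold in Mll2 KO, by 1.11 ± 0.15 on the log2 scale (adjusted p = 7.24e-05), a call that held in 14 of 14 alternatives. In libraries labelled DKO the log2 fold change was 0.12 ± 0.15 (adjusted p = 0.595). The files' Fdps counts are uncertain, as several processed pseudogenes are 91.1% to 98.9% identical to it over long stretches and the gene Gm43738 shares 1124 exon bases with it on the same strand. Mvd makes isopentenyl diphosphate. Mvd had 4.61 and 6.12 CPM in libraries labelled DKO, against 7.65 and 7.89 CPM in controls, and 14.9 and 15.3 CPM in Mll2 KO, against 10.5 and 8.81 CPM in WT. It lay below its controls in one line and above them in the other. Only the rise in Mll2 KO was called, at 0.65 ± 0.19 (adjusted p = 0.0153), and it was lost without WT library 2 (adjusted p = 0.183). In libraries labelled DKO the log2 fold change was -0.54 ± 0.20 (adjusted p = 0.0572), and it stayed uncalled in 8 of 14 alternatives. Alternatives that called this fall included relative log expression scaling (adjusted p = 0.0469), library size alone (adjusted p = 0.0283) and this line fitted alone (adjusted p = 0.00668).

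Hmgcs1, the abundant enzyme that makes HMG-CoA, had 248 and 231 CPM in libraries labelled DKO, against 241 and 229 CPM in controls, and 323 and 357 CPM in Mll2 KO, against 370 and 388 CPM in WT. Neither difference was called, at log2 fold changes of 0.03 ± 0.10 and -0.16 ± 0.10. The phosphomevalonate kinase Pmvk and the isomerase Idi1 stayed below 10 CPM in every library and were not called in either mutant. The processed pseudogene Gm13502 is 100% identical to Idi1 over 684 aligned bases, so the Idi1 counts are uncertain. The sign of the Idi1 difference in Mll2 KO depended on 1 library, as its log2 fold change of 0.07 ± 0.34 became -0.79 (adjusted p = 0.0413) without KO library 1.

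Among the 10 enzymes from squalene to cholesterol, 3 fell in libraries labelled DKO, while in Mll2 KO 4 fell and 1 rose. That is 30% and 50%, beside 30.9% and 30.6% of all tested genes. Nsdhl is a sterol dehydrogenase that removes methyl groups from the sterol ring. Nsdhl had 22.1 and 22.1 CPM in libraries labelled DKO, against 39.1 and 36.7 CPM in controls, and 34.7 and 34.2 CPM in Mll2 KO, against 38.1 and 39.7 CPM in WT. It fell 1.71-fold in libraries labelled DKO, by a log2 fold change of -0.78 ± 0.13 (adjusted p = 0.000339), a call that held in 14 of 14 alternatives. In Mll2 KO it was -0.17 ± 0.12 (adjusted p = 0.308). Hsd17b7 is the ketosteroid reductase of the same demethylation complex. Hsd17b7 had 23.5 and 22.6 CPM in libraries labelled DKO, against 28.3 and 34.4 CPM in controls, and 53.3 and 61.2 CPM in Mll2 KO, against 40.2 and 39.4 CPM in WT. In the main fit it was the one member called in opposite directions. It fell in libraries labelled DKO, at -0.45 ± 0.14 (adjusted p = 0.0219), and rose in Mll2 KO, at 0.52 ± 0.13 (adjusted p = 0.00743). The fall was lost without H2A.Z control library 2 (adjusted p = 0.260) or either library labelled DKO (adjusted p = 0.0980 and 0.128), and the rise without WT library 2 (adjusted p = 0.0862).

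Fdft1, squalene synthase, had 617 and 647 CPM in libraries labelled DKO, against 616 and 592 CPM in controls, and 385 and 293 CPM in Mll2 KO, against 486 and 564 CPM in WT. It fell 1.55-fold in Mll2 KO, by a log2 fold change of -0.63 ± 0.13 (adjusted p = 0.00147), in 14 of 14 alternatives, and was 0.07 ± 0.12 in libraries labelled DKO. Its exons share 774 bases with the antisense gene Ctsb, which had 70.6 to 116 CPM over all libraries, and a processed pseudogene is 97.4% identical over 1249 bases. Tm7sf2 is a sterol reductase whose reaction is also carried out by Lbr, the lamin B receptor. Tm7sf2 had 1.86 and 2.47 CPM in libraries labelled DKO, against 3.26 and 2.63 CPM in controls, and 1.59 and 1.75 CPM in Mll2 KO, against 4.10 and 3.46 CPM in WT. It fell in Mll2 KO by a log2 fold change of -1.18 ± 0.28 (adjusted p = 0.00531), a call lost without WT library 1 (adjusted p = 0.0526). Lbr, named after its values were seen, had 474 and 458 CPM in libraries labelled DKO, against 402 and 403 CPM in controls, and 440 and 380 CPM in Mll2 KO, against 381 and 344 CPM in WT, and was called in neither. Ebp, the sterol isomerase, had 8.87 and 10.3 CPM in libraries labelled DKO, against 12.2 and 13.0 CPM in controls, and 4.05 and 3.66 CPM in Mll2 KO, against 5.06 and 6.86 CPM in WT. Its fall in Mll2 KO, -0.63 ± 0.21 (adjusted p = 0.0351), was lost in 7 of 14 alternatives, with an adjusted p up to 0.317 without WT library 2. Sqle, Lss, Msmo1 (the methylsterol oxidase) and Sc5d were not called in either mutant.

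**Figure D2:**
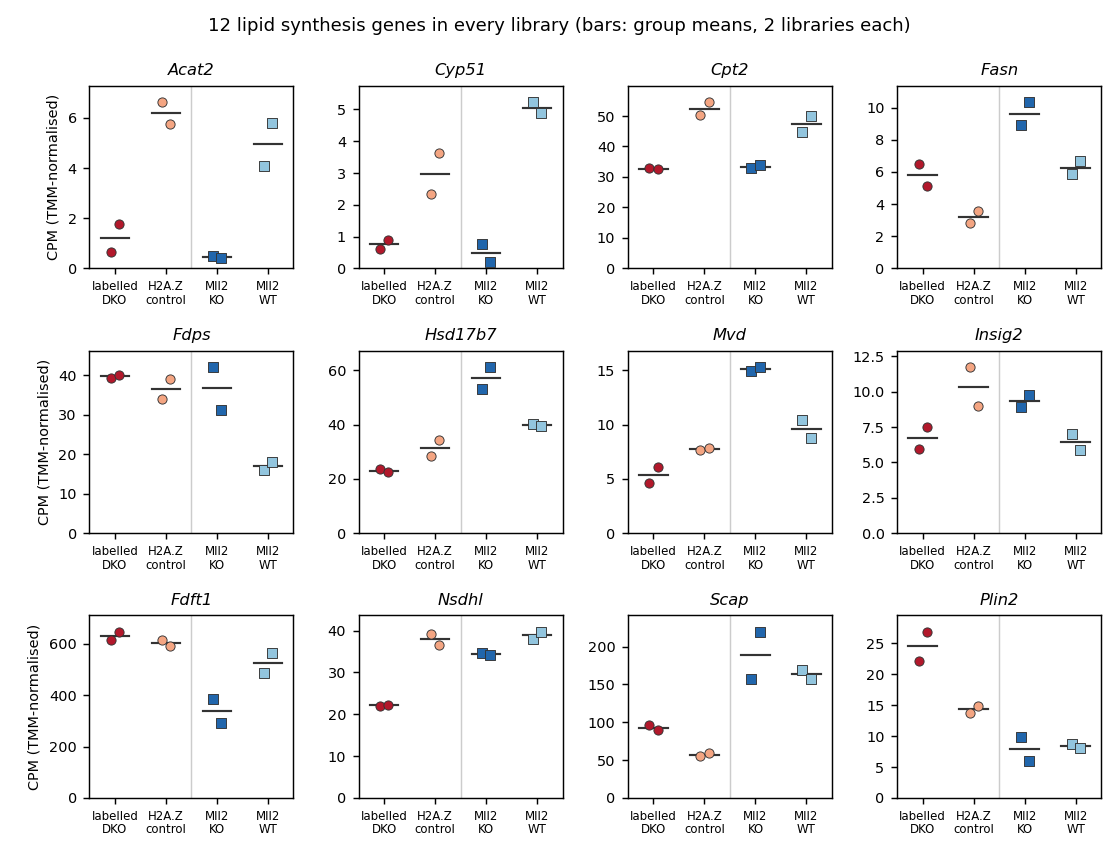
TMM-normalised CPM of 12 members in each library, on axes that start at 0, with each mutant left of its own controls; points are the 2 libraries of a group and the line is their mean. Acat2 and Cyp51 are lower in both mutants, while Fdps is higher in Mll2 KO at 42.1 and 31.3 CPM, against 16.0 and 18.0 CPM in WT.

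Of the 5 genes of SREBP and its regulators, 1 rose and 2 fell in libraries labelled DKO, and 2 rose in Mll2 KO. That is 60% and 40% of few genes, beside 30.9% and 30.6% of all tested genes. Scap, the escort that carries SREBP to the Golgi, had 95.8 and 89.99 CPM in libraries labelled DKO, against 55.3 and 58.9 CPM in controls, and 157 and 219 CPM in Mll2 KO, against 169 and 158 CPM in WT. Scap rose 1.63-fold in libraries labelled DKO, by 0.70 ± 0.14 on the log2 scale (adjusted p = 0.00119), in 14 of 14 alternatives. In Mll2 KO its libraries overlapped and the log2 fold change was 0.20 ± 0.13 (adjusted p = 0.257). The antisense gene 5830462I19Rik shares 785 exon bases with Scap. Srebf2, the source of SREBP2, had 0.177 and 0.380 CPM in libraries labelled DKO, against 0.672 and 0.837 CPM in controls, from 4, 8, 13 and 21 counts. It had 1.69 and 1.92 CPM in Mll2 KO, against 2.41 and 2.51 CPM in WT. At these low counts the fall in libraries labelled DKO, -1.45 ± 0.50 (adjusted p = 0.0392), was lost in 7 of 14 alternatives, among them DESeq2 (adjusted p = 0.0836) and the fit without library 1 labelled DKO (adjusted p = 0.264).

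Srebf1, the source of SREBP1, had 20.2 and 19.5 CPM in libraries labelled DKO, against 17.3 and 15.9 CPM in controls, and 42.1 and 52.6 CPM in Mll2 KO, against 35.5 and 32.8 CPM in WT. Insig1, a retention protein that is itself a target of SREBP, had 48.4 and 45.7 CPM in libraries labelled DKO, against 49.8 and 48.5 CPM in controls, and 76.6 and 100 CPM in Mll2 KO, against 60.7 and 66.8 CPM in WT. Both rose in Mll2 KO, Srebf1 by 0.47 ± 0.14 (adjusted p = 0.0185) and Insig1 by 0.47 ± 0.13 (adjusted p = 0.0119). Neither was called in libraries labelled DKO. Both calls were lost with the Mll2 line fitted alone (adjusted p = 0.0621 for Srebf1 and 0.0564 for Insig1). They were also lost without WT library 1 or 2 or without KO library 2. Without KO library 2 the log2 fold changes were 0.26 for Srebf1 and 0.22 for Insig1. Srebf1 shares 109 exon bases with the antisense gene Rai1, which had at most 1.58 CPM in a library. Insig2, the second retention protein, had 5.99 and 7.499 CPM in libraries labelled DKO, against 11.7 and 8.97 CPM in controls, and 8.94 and 9.75 CPM in Mll2 KO, against 7.01 and 5.90 CPM in WT. It fell in libraries labelled DKO, at -0.61 ± 0.21 (adjusted p = 0.0374), a call lost in 5 of 14 alternatives, with an adjusted p of 0.311 without H2A.Z control library 1. In Mll2 KO it was 0.53 ± 0.21 (adjusted p = 0.0616). The lysosomal exporters Npc1 and Npc2, which release cholesterol taken up with lipoproteins, were called in neither mutant, with log2 fold changes between -0.26 and 0.09.

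Fatty acid synthesis genes rose in Mll2 KO for 2 of 4 members, and in libraries labelled DKO for 1. That is 50% and 25% of few genes, beside 30.6% and 30.9% of all tested genes. Besides Fasn, the gene that rose in Mll2 KO was Acly, which splits citrate into cytosolic acetyl-CoA. Acly had 9.32 and 9.54 CPM in libraries labelled DKO, against 9.10 and 11.6 CPM in controls, and 24.8 and 25.7 CPM in Mll2 KO, against 17.7 and 17.5 CPM in WT. The Mll2 KO libraries lay above WT, at 0.52 ± 0.16 (adjusted p = 0.0207), a call lost without WT library 1 (adjusted p = 0.108) or 2 (adjusted p = 0.148). The carboxylases Acaca and Acacb were not called, nor were the tested elongation and desaturation genes Elovl1, Elovl5 and Scd2. Elovl1 had 186 and 190 CPM in libraries labelled DKO, against 183 and 198 CPM in controls, and 134 and 102 CPM in Mll2 KO, against 125 and 156 CPM in WT. Its libraries overlapped in both lines.

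The lipid droplet coat genes split. Plin2 had 22.2 and 26.9 CPM in libraries labelled DKO, against 13.8 and 14.9 CPM in controls, and 9.85 and 5.98 CPM in Mll2 KO, against 8.79 and 8.05 CPM in WT. Plin2 rose in libraries labelled DKO, by 0.77 ± 0.21 (adjusted p = 0.0102), a call lost without either H2A.Z control library (adjusted p = 0.0879 and 0.0584) or without library 2 labelled DKO (adjusted p = 0.109). Plin3, a coat protein that moves between cytosol and droplets, had 15.7 and 19.7 CPM in libraries labelled DKO, against 22.4 and 22.6 CPM in controls, and 16.0 and 20.2 CPM in Mll2 KO, against 25.5 and 24.9 CPM in WT. It lay below controls in all 4 mutant libraries. The fall was called in Mll2 KO, at -0.48 ± 0.16 (adjusted p = 0.0335), and lost in 7 of 14 alternatives, with an adjusted p up to 0.137. In libraries labelled DKO it was -0.35 ± 0.16 (adjusted p = 0.122).

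**Figure D3:**
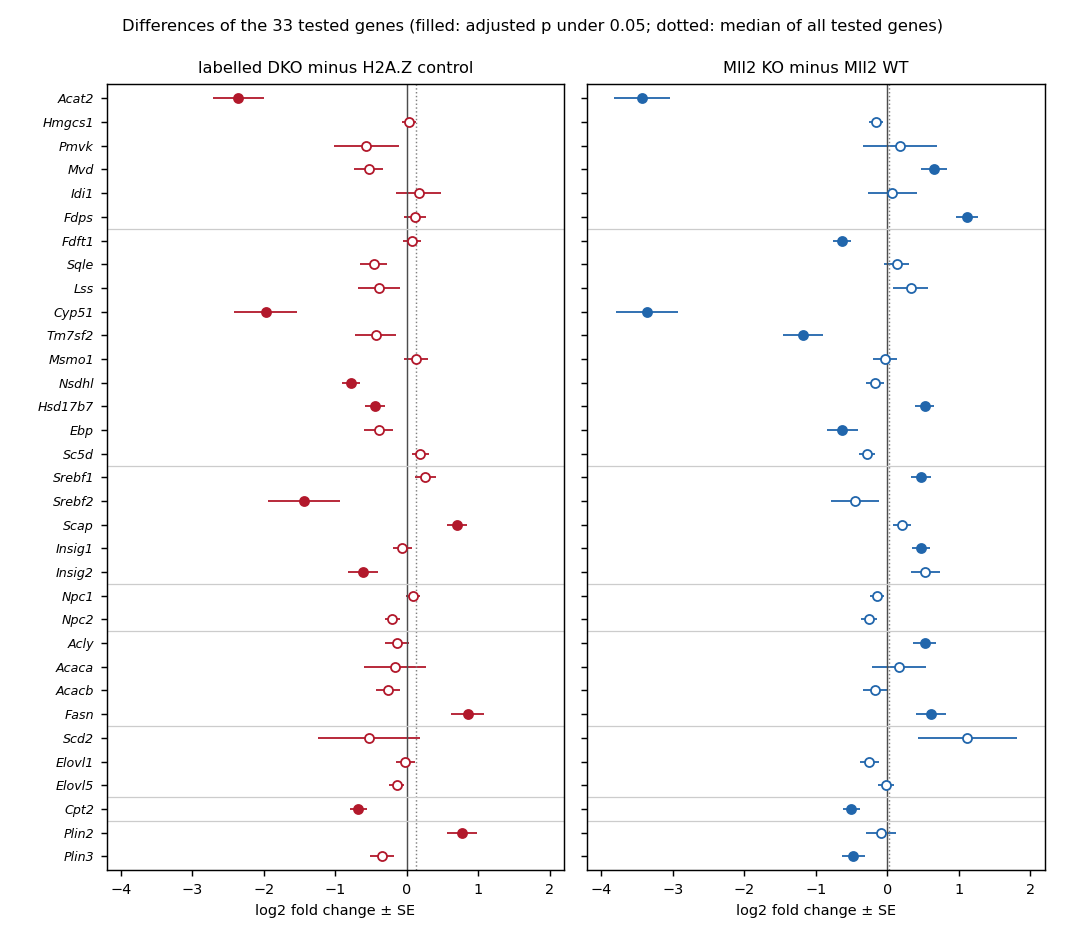
Log2 fold changes of the 33 tested members with their SE, libraries labelled DKO against H2A.Z controls beside Mll2 KO against WT, with filled marks at an adjusted p under 0.05. Acat2 and Cyp51 lie farthest below 0 in both, at -2.36 and -1.98 in libraries labelled DKO and -3.43 and -3.36 in Mll2 KO.

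Whether the mutants differed was tested directly, as the Mll2 KO effect minus the effect in libraries labelled DKO, from separate controls. Of the 33 members, 5 had a higher and 1 a lower effect in Mll2 KO. That is 18.2%, beside a background of 19.5% of all tested genes (6.68% higher and 12.9% lower). The higher ones were Mvd, Fdps, Nsdhl, Hsd17b7 and Insig2, and the lower one was Fdft1. The differences for Fdps (0.99 ± 0.22, adjusted p = 0.00479) and Hsd17b7 (0.97 ± 0.19, adjusted p = 0.00235) held in 13 of 13 alternatives. For Acat2 and Cyp51 the larger fall in Mll2 KO was not called as a difference, at -1.08 ± 0.55 (adjusted p = 0.188) and -1.38 ± 0.63 (adjusted p = 0.139). Leaving out libraries moved the count of different effects between 3 members without library 1 labelled DKO (8.57%, beside 10.9% of all genes in that fit) and 15 members without Mll2 KO library 1 (42.9%, beside 26.3%). Signs of the log2 fold changes matched in both lines for 17 of 33 members, against 60.4% of all tested genes. Across the 33 members the effects correlated at r = 0.68 and rho = 0.25, beside r = 0.34 over all tested genes, as a description in which genes are not independent, and Acat2 and Cyp51 lie far from the rest. Called in neither mutant were 14 of 33. The shares of all tested genes called in both mutants or in neither were not counted, so these joint calls have no background beside them.

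**Figure D4:**
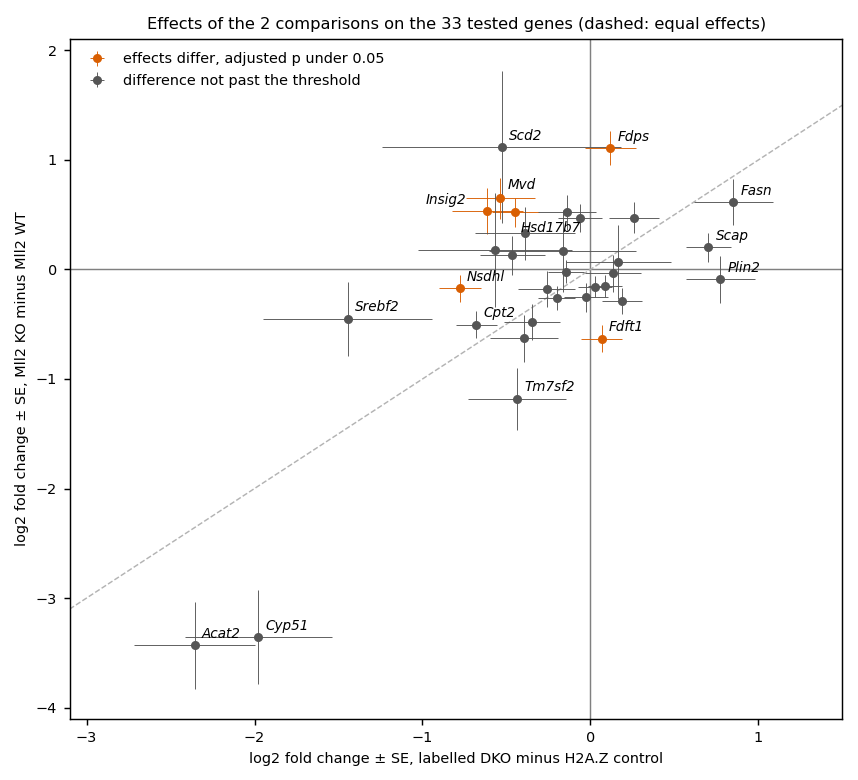
Log2 fold change in Mll2 KO (vertical) against that in libraries labelled DKO (horizontal), 1 point per tested member, with the 6 members whose effects differed marked. Acat2 and Cyp51 stand alone at lower left, and Hsd17b7, Mvd and Insig2 lie where the effect is below 0 in libraries labelled DKO and above 0 in Mll2 KO.

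The neighbouring genes of these pathways were counted from lists kept beside the 39, to be read against the 30.9% of all genes called in libraries labelled DKO and the 30.6% called in Mll2 KO. In libraries labelled DKO the share called was 40% of other cholesterol synthesis genes, 33.3% of SREBP processing and sterol receptor genes and 30.8% of uptake and transport genes. In Mll2 KO the shares of these lists were 30%, 44.4% and 23.1%. Of 10 other cholesterol synthesis genes tested, 3 were higher and 1 lower in libraries labelled DKO, and 3 were higher in Mll2 KO. Among them Acat1, the mitochondrial thiolase, had 293 and 280 CPM in Mll2 KO, against 218 and 218 CPM in WT (0.39 ± 0.10, adjusted p = 0.00756). That call was lost without WT library 1 or 2. Acat1 was also called higher in libraries labelled DKO, with 306 and 269 CPM, against 224 and 229 CPM in controls (0.35 ± 0.10, adjusted p = 0.0157). Of 18 genes of SREBP processing and sterol receptors, 4 were higher and 2 lower in libraries labelled DKO, and 3 higher and 5 lower in Mll2 KO. Mbtps1, the Golgi protease that makes the first cut in SREBP, had 18.1 and 15.6 CPM in libraries labelled DKO, against 9.98 and 8.81 CPM in controls (0.85 ± 0.17, adjusted p = 0.00167). Erlin1, an endoplasmic reticulum protein, had 15.6 and 16.8 CPM in Mll2 KO, against 33.4 and 33.7 CPM in WT (-1.05 ± 0.14, adjusted p = 4.33e-05). Erlin1 was also called lower in libraries labelled DKO, with 17.6 and 18.2 CPM, against 26.7 and 24.9 CPM in controls (-0.52 ± 0.14, adjusted p = 0.0103). Of 13 uptake and transport genes tested, 4 were higher in libraries labelled DKO, and 2 higher and 1 lower in Mll2 KO. The lipoprotein receptor gene Vldlr had 6.39 and 5.65 CPM in libraries labelled DKO, against 1.14 and 1.59 CPM in controls (2.12 ± 0.31, adjusted p = 0.000123). In the other line Vldlr had 0.877 and 1.11 CPM in Mll2 KO, against 1.49 and 1.95 CPM in WT (-0.79 ± 0.32, adjusted p = 0.0761). The difference between its effects was called, at -2.91 ± 0.45 (adjusted p = 0.000322).

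On the fatty acid side, 27 other synthesis genes gave 3 higher and 5 lower in libraries labelled DKO, and 2 higher and 8 lower in Mll2 KO, a share of 29.6% called in libraries labelled DKO and 37% in Mll2 KO. Scd3, a stearoyl-CoA desaturase, had 62.0 and 81.1 CPM in libraries labelled DKO, against 41.3 and 36.3 CPM in controls (0.88 ± 0.15, adjusted p = 0.000361), where its relative Scd1 was at or near 0. Scd1 and Scd3 are 91.4% identical over 1053 aligned bases, so reads could be split between them. Of 24 fatty acid oxidation genes tested, 2 were higher and 7 lower in libraries labelled DKO, and 5 higher and 8 lower in Mll2 KO, a share of 37.5% called in libraries labelled DKO and 54.2% in Mll2 KO. Acadm, the medium-chain acyl-CoA dehydrogenase downstream of Cpt2, had 18.2 and 19.6 CPM in libraries labelled DKO, against 56.6 and 53.0 CPM in controls, and 13.1 and 11.4 CPM in Mll2 KO, against 56.1 and 65.3 CPM in WT. It fell in both, by log2 fold changes of -1.54 ± 0.14 (adjusted p = 1.41e-06) and -2.31 ± 0.14 (adjusted p = 9.76e-09). Of 20 lipid droplet and triglyceride genes tested, 2 were higher and 2 lower in libraries labelled DKO, and 5 higher and 2 lower in Mll2 KO, a share of 20% called in libraries labelled DKO and 35% in Mll2 KO. Hilpda, an inhibitor of triglyceride breakdown, had 40.5 and 47.3 CPM in libraries labelled DKO, against 28.3 and 30.3 CPM in controls (0.58 ± 0.14, adjusted p = 0.00584), a call lost without H2A.Z control library 1 (adjusted p = 0.0706) or library 2 labelled DKO (adjusted p = 0.0871). In the other line Hilpda had 9.27 and 8.40 CPM in Mll2 KO, against 21.9 and 24.1 CPM in WT (-1.38 ± 0.15, adjusted p = 5.97e-06).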

How the data were processed

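The deposited table holds raw counts per gene for 8 libraries. The submitters' processing notes name Trim Galore 0.6.4, STAR 2.7.3, RSEM 1.3.1 and mm10. The deposited counts are whole numbers; the sources used here state no annotation, strand setting or rounding. Multi-mapping reads and overlapping genes can therefore shift the counts of genes with near-identical copies.

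Counts were tested with edgeR 4.0.16 (limma 3.58.1, R 4.3.3) after filterByExpr and TMM scaling, in one quasi-likelihood fit of 4 groups with 4 residual degrees of freedom. The libraries labelled DKO were set against H2A.Z controls and Mll2 KO against Mll2 WT, and the difference of both effects was tested. P-values were adjusted by Benjamini-Hochberg over all 16847 tested genes, with a threshold of 0.05, and the fit was tested on simulated data. CPM values are counts per 1000000 of the TMM-scaled library size. Lengths are the median of coding transcripts in GENCODE M21, and near copies were found with BLAST 2.17.0 at 90% identity over at least 200 bases. Alternatives were other scalings, no low-count filter, DESeq2 1.42.0, each line alone, a replicate block and leaving out each library.

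Replicate numbers in the labels name no shared animal or day. Every member could be named, with values in each library for those called or most abundant. From each other list, up to 2 called genes with the smallest p in a comparison could be named; 1 such gene is not reported here. The members and lists were chosen with earlier results of these data known. Intervals were not computed for levels, and the limit for a count of 0 covers counting error only. Total counts of 20309233 to 30087863 leave genes with few counts imprecise.

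Other lists were cell type markers. Of all tested genes, 30.9% were called in libraries labelled DKO and 30.6% in Mll2 KO. Of 4 tested theca and stroma markers, 1 was higher in libraries labelled DKO (25%). In Mll2 KO, 1 was higher and 1 lower (50%). Of 4 tested blood, immune and endothelial markers, 1 was higher in libraries labelled DKO (25%). In Mll2 KO, 2 were higher and 1 lower (75%). Of 16 oocyte markers, 3 were higher in libraries labelled DKO (18.8%) and 5 lower in Mll2 KO (31.2%). Of 13 tested granulosa and cumulus markers, 4 were higher and 2 lower in libraries labelled DKO (46.2%). In Mll2 KO, 5 were higher and 2 lower (53.8%).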

Additional observations from a re-analysis of the deposited data

Results flagged for a closer look

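The effect in Mll2 KO minus that in libraries labelled DKO passed an adjusted p of 0.05 (edgeR) for 6 genes. The difference was 1.19 on the log2 scale for Mvd, 0.99 for Fdps, 0.97 for Hsd17b7 and 1.15 for Insig2. It was 0.605 for Nsdhl, which fell in libraries labelled DKO, and -0.70 for Fdft1, which fell in Mll2 KO. The Mvd difference was lost without library 1 labelled DKO (adjusted p = 0.0528). Fdft1 lost it in 4 of 13 alternatives, Nsdhl in 5 and Insig2 in 3, with adjusted p up to 0.108, 0.113 and 0.0838.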

How the results depend on the processing

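Over all members and comparisons, 1219 of the values kept their side of the threshold under an alternative, 61 passed it only there, 70 lost it and 1 reversed. A change of sign counted as reversed only where a fit called the value. Uncalled values among the 1219 could therefore change sign, as Hmgcs1 did in libraries labelled DKO, from 0.03 to as low as -0.096. The reversed value was that of Idi1 in Mll2 KO, -0.79 without KO library 1 and 0.57 without KO library 2. With each line fitted alone, 17 members were called in libraries labelled DKO (14 lower), or 53.1% beside 43.1% of all genes. In Mll2 KO it was 9 (4 higher), or 27.3% beside 21.5%. The calls that this fit added in libraries labelled DKO were Mvd, Sqle, Ebp, Npc2, Acacb, Elovl5 and Plin3, all lower. For the difference between the effects, library size alone gave 8 higher and 0 lower (24.2%, beside 17.6% of all genes in that fit). No low-count filter gave 10 in all with 4 lower (25.6%, beside 14.1%). The replicate block gave 8 called members in libraries labelled DKO (24.2%, beside 29.6% of all genes) and 14 in Mll2 KO (42.4%, beside 29.5%). For the difference it gave 9, 3 of them lower (27.3%, beside 18.5%). In libraries labelled DKO the block ended the calls of Srebf2 (adjusted p = 0.0502) and Insig2 (adjusted p = 0.0527). Same-numbered libraries shared little, with correlations of their deviations of 0.04 in the H2A.Z line and -0.02 in the Mll2 line. Leaving out each library in turn gave 5 to 17 called members in libraries labelled DKO (1 to 3 higher, 3 to 14 lower). It gave 5 to 20 in Mll2 KO (1 to 9 higher, 4 to 11 lower) and 3 to 15 for the difference (2 to 11 higher, 0 to 4 lower). The share of all genes called moved too, between 14.9% and 37.4% in libraries labelled DKO and between 15.1% and 38.7% in Mll2 KO. With 2 libraries a group, and few counts for Srebf2, Cyp51 and Acat2, small differences could not be seen. The causes of these shifts were not tested.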

Other observations

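The labels do not describe batches of the lines, so line and batch cannot be told apart between the control groups. Of the 33 tested members, both H2A.Z control libraries lay above both Mll2 WT libraries for 11, below both for 17, and overlapped for 5. That is 84.8% not overlapping, beside 75.2% of all tested genes. Fdps had 34.1 and 39.1 CPM in H2A.Z controls and 16.0 and 18.0 CPM in Mll2 WT, Scap 55.3 and 58.9 CPM and 169 and 158 CPM, and Srebf2 0.672 and 0.837 CPM and 2.41 and 2.51 CPM. Elovl5 had 117 and 117 CPM in H2A.Z controls and 190 and 203 CPM in Mll2 WT. No test was made between the lines.

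CpG content of the promoter windows was set beside the calls for 28 tested members with a window. In libraries labelled DKO, the median was 27 CpG sites in the 7 lower members, 21 in the 3 higher and 20 in the 18 not called. In Mll2 KO it was 12.5 in 6 lower members, 31.5 in 6 higher and 21 in 16 not called. As a description across genes, CpG sites correlated with the log2 fold change at r = 0.14 in libraries labelled DKO and r = 0.23 in Mll2 KO.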
